A study of Mus musculus with 6 samples.

Results

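The tumour suppressor p53 and 9 genes of its response were followed in the mouse embryonic stem cell line RW4 after exposure to either of a pair of chemical inducers. The members were chosen by name: Trp53, which encodes p53 itself, and Cdkn1a, Mdm2, Ccng1, Bbc3, Bax, Trp53inp1, Phlda3, Zmat3 and Aen. A value was taken where a probe set of the array carried exactly 1 gene symbol in the platform annotation, and 7 of the 10 genes had one, among 19938 genes in all. Each of the 7 had a single such probe set. The 3 genes without a value were Trp53 and Bax, for which no probe set was matched here, and Cdkn1a, whose probe set also carries the symbol 4930567H12Rik. Those 3 were not analysed here, so the transcript of p53 itself and that of its best-known cell cycle target do not enter the results.

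The data were 6 single-colour Affymetrix arrays of total RNA. They formed 3 groups of 2: RW4 cells given 1 µM 4-hydroxytamoxifen (4OHT) and labelled with the ERT2 induction system, RW4 cells given 1 µM Shld1 and labelled with the FKBP induction system, and RW4 cells labelled WT that received no agent. All were grown on gelatin in medium with newborn calf and fetal bovine serum at 10% each, with leukemia inhibitory factor at 1000 U/mL and β-mercaptoethanol. 4OHT is the active metabolite of tamoxifen and a ligand of the estrogen receptor, whose mutated domain ERT2 is used to make fusion proteins inducible. Shld1 is a synthetic compound that binds an engineered, unstable FKBP domain and so spares the protein fused to it from degradation. The labels do not say whether any of the cells carried such a fusion, and the sources used here give no length of treatment. The arrays of a group are called duplicates with no word on separate cultures, so p-values reflect the spread among these arrays alone, and that spread may be technical.

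p53 is a transcription factor that is held at a low level by the ubiquitin ligase Mdm2 and accumulates when DNA damage or other stress blocks that ligase. It then binds DNA at paired half-sites and raises the transcription of genes that stop the cell cycle (Cdkn1a), trigger cell death (Bbc3, Bax, Aen), restrain survival signalling (Phlda3) and limit p53 itself (Mdm2, Ccng1). Mouse embryonic stem cells are known for abundant p53 protein and for a weak arrest in G1 after damage, and p53 is known to lower Nanog in damaged stem cells. Because p53 is regulated largely at the protein level, the transcripts of its targets are the usual array readout of its activity.

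The promoters are shown because p53-like letters near a start are a feature of sequence, apart from any array value, that some of the members share. RefSeq sequence of build GRCm38.p6 held promoter windows, from 250 bases before to 50 bases after an annotated start, for 8 of the 10 genes (12 windows). A core pair was defined as a core with the letters CATG, the letters CAAG, the letters CTTG or the letters CTAG, followed by 6 bases and then another such core, which is the centre of a p53 site with no spacer. The p53 half-site consensus of 10 bases was searched as well, and it can lie over a core of such a pair. Both patterns read the same on the opposite strand, so each search covers both strands. The core pair was present in a window of 4 of the 8 genes, and the half-site consensus in a window of 6 of the 8. Of all 27025 genes with a window, 8.19% held a core pair and 9.55% a half-site. The stretches below run 5′ to 3′ on the strand of the gene, with the cores of a pair or the whole half-site in capitals.
Bbc3, core pair, chr7:16309481-16309510, plus strand: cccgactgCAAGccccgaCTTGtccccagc
Aen, core pair, chr7:78895932-78895961, plus strand: aagccgggCTTGtccgggCAAGgagcttcc
Trp53, core pair, chr11:69580279-69580308, plus strand: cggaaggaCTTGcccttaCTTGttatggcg
Cdkn1a, core pair, chr17:29090923-29090952, plus strand: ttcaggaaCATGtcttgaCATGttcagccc
Mdm2, half-site, chr10:117710925-117710954, minus strand: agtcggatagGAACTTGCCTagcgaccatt
Ccng1, half-site, chr11:40755452-40755481, minus strand: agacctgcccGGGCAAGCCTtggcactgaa
Bax, half-site, chr7:45467080-45467109, minus strand: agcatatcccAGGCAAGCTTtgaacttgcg

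The Bbc3 and Aen stretches lay inside the RefSeq interval of the gene itself, and the other 5 overlapped no RefSeq gene. The pair in Aen began at position 14 from an annotated start and at position -118 from another. That of Bbc3 began at position -94 from the first of the 3 starts that had a window here. The windows of its other starts held neither pattern. In Trp53 the pair began at position -72. In Cdkn1a it began at position -48 from an annotated start. The same window held a separate half-site, not printed above, that began at position -73. The window of another Cdkn1a start held neither pattern. The half-sites of Mdm2, Ccng1 and Bax began at positions -186, -185 and -201. The window of Phlda3 held neither pattern, which says only that these letters are not within it. Trp53inp1 and Zmat3 had no window here. A match of letters is a description and not a measured binding site.

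All 7 measured genes lay well above background on every array. Background was read from 1027 olfactory receptor genes, a family of sensory neurons, and its level was set at the 95th percentile of their mean log2 signal, 3.71. The lowest value of any member on any array was 6.13, for Aen with Shld1. The stem cell label was borne out by the 10 stem cell markers, all of which were above that level on every array, including Pou5f1, Sox2 and Nanog. Among markers of other cells, Postn, Lum and Dcn of fibroblasts, Cdx2 and Elf5 of trophoblast, Afp of endoderm, Kdr of mesoderm and Nes of neural cells were above it on no array. Of the 8 fibroblast genes, 4 were above it on every array, as were 4 of 6 endoderm genes (Gata4 and Gata6 among them), 2 of 4 mesoderm genes, 2 of 4 neural genes and 2 of 4 trophoblast genes. The mean of the 8 fibroblast genes ran from 3.73 to 3.96 on the 4OHT arrays, from 3.79 to 3.80 on the Shld1 arrays and from 3.73 to 3.83 on the untreated arrays. Of the arrays, 4OHT replicate 1 and Shld1 replicate 2 had the narrowest spread of signals over all probe sets, with SDs of 2.29 and 2.24. On the other arrays the SDs ran from 2.33 to 2.35.

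The first genes are those that feed back on p53. Mdm2, the ubiquitin ligase that marks p53 for degradation and is itself a p53 target (probe set 10372668), had log2 signals of 8.35 and 8.47 in 4OHT cells, 8.45 and 8.24 in Shld1 cells, and 8.50 and 8.32 in untreated cells. The 3 groups overlapped, and the highest value of all was an untreated array. Its mean difference was 0.00 (SE 0.15) for 4OHT against untreated and -0.06 (SE 0.15) for Shld1 against untreated. Their 95% intervals were -0.34 to 0.34 with 4OHT and -0.40 to 0.28 with Shld1, in log2 units. Expressed as folds, they allow Mdm2 with 4OHT to lie between 0.792 and 1.27 times its untreated level.

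Ccng1 encodes cyclin G1, which directs a phosphatase to Mdm2 and is among the most regular p53 targets in mouse cells (probe set 10385271). It was the steadiest member, at 9.77 and 9.71 in 4OHT cells, 9.71 and 9.72 in Shld1 cells, and 9.72 and 9.67 in untreated cells. All 6 arrays lay within 0.10 of each other. The difference was 0.05 (SE 0.14, 95% interval -0.26 to 0.35) with 4OHT and 0.02 (SE 0.14, 95% interval -0.29 to 0.32) with Shld1, both against untreated. As with Mdm2, neither agent set its arrays apart.

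**Figure D1:**
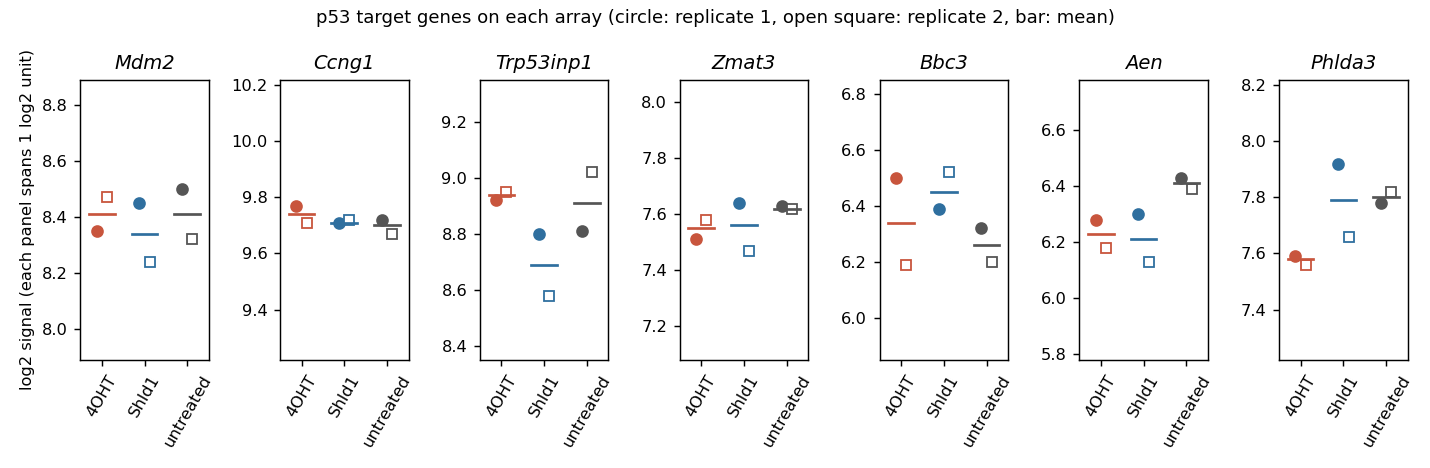
Log2 signal of the 7 measured p53 target genes on each array, in panels that each span 1 log2 unit, with 4OHT, Shld1 and untreated cells from left to right, replicate 1 as a circle, replicate 2 as an open square and the group mean as a bar. The Ccng1 arrays all lie between 9.67 and 9.77, while the Aen arrays of both agents lie below both untreated arrays.

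The genes of the cell death branch did not share a direction. Bbc3, which encodes PUMA, a BH3-only protein that triggers apoptosis at mitochondria (probe set 10550290), was at 6.50 and 6.19 in 4OHT cells, 6.39 and 6.52 in Shld1 cells, and 6.32 and 6.20 in untreated cells. Both Shld1 arrays lay above both untreated arrays, whereas the 4OHT arrays lay on either side of them. The difference was 0.08 (SE 0.16) for 4OHT against untreated and 0.20 (SE 0.16) for Shld1 against untreated. The Shld1 interval ran from -0.16 to 0.55, or from 0.897 to 1.46 times the untreated level, and the adjusted p was 0.999 (limma). The gap between the 4OHT arrays, 0.31, was the largest between replicates of any member in any group, and without 4OHT replicate 1 the 4OHT difference was -0.07.

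Aen encodes a nuclease that cuts DNA during p53-dependent apoptosis (probe set 10554233). Its signals were 6.28 and 6.18 in 4OHT cells, 6.30 and 6.13 in Shld1 cells, and 6.43 and 6.39 in untreated cells. All 4 treated arrays lay below both untreated arrays, and the comparisons of either agent share those untreated arrays. With 4OHT the difference was -0.18 (SE 0.14, 95% interval -0.49 to 0.14; limma, adjusted p = 0.961). With Shld1 it was -0.19 (SE 0.14, 95% interval -0.51 to 0.13; limma, adjusted p = 0.999). Among the measured members, Aen and Bbc3 both have a core pair printed above, though Bbc3 was higher on both Shld1 arrays. Any tie between that sequence and the array values was not tested.

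Trp53inp1 encodes a stress protein that binds p53 and promotes cell death and autophagy (probe set 10503259). It was at 8.92 and 8.95 in 4OHT cells, 8.80 and 8.58 in Shld1 cells, and 8.81 and 9.02 in untreated cells. Both Shld1 arrays lay below both untreated arrays, the first of them by no more than 0.01 from the lower one. The difference with Shld1 was -0.22 (SE 0.15, 95% interval -0.56 to 0.12), and with 4OHT it was 0.02 (SE 0.15, 95% interval -0.32 to 0.36). Against untreated, the array Shld1 replicate 2 stood at -0.33 and Shld1 replicate 1 at -0.11.

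The remaining members act on survival signalling and on RNA. Phlda3 encodes a small PH domain protein that blocks the kinase AKT at the membrane (probe set 10350146). It was at 7.59 and 7.56 in 4OHT cells, 7.92 and 7.66 in Shld1 cells, and 7.78 and 7.82 in untreated cells. The 4OHT arrays lay close together and below all 4 others, and the Shld1 arrays stood on either side of the untreated ones. Its difference for 4OHT against untreated, -0.23 (SE 0.15), was the farthest from 0 of any member in that comparison. The 95% interval ran from -0.56 to 0.11, which is 0.68 to 1.08 times the untreated level. The adjusted p was 0.961 (limma), and the gene ranked 3288 of 19938 by p. With Shld1 the difference was -0.01 (SE 0.15).

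Zmat3 encodes a zinc finger protein that binds RNA and acts on the stability and splicing of messenger RNAs (probe set 10497673). It was at 7.51 and 7.58 in 4OHT cells, 7.64 and 7.47 in Shld1 cells, and 7.63 and 7.62 in untreated cells. The 4OHT arrays lay below both untreated arrays, by a mean of -0.08 (SE 0.14, 95% interval -0.39 to 0.24). Shld1 held both the highest and the lowest value of the gene, with a difference of -0.06 (SE 0.14) from untreated.

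No p53 target gene passed the test in 4OHT against untreated. Limma called 0 of 7 members, and 0 of the 19938 genes (0%), at an adjusted p of 0.05, and 0 of 7 had an unadjusted p under 0.05, against 4.99% of all genes. The difference was above 0 for 4 members and below 0 for 3, against 52.2% of all genes below 0. The median of the members was 0.00, beside -0.009 over all genes. 4OHT and untreated arrays did not overlap for 3 members, Phlda3, Zmat3 and Aen, all lower with 4OHT, and for 0 members higher. Over all genes, the arrays were apart and lower in 20.4% and apart and higher in 17.3%. All 7 members had a 95% interval narrower than 1.5-fold in either direction, as had 72.1% of all genes. A bulk array cannot tell fewer cells of a type from less RNA per cell, here and in the other comparisons.

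Shld1 against untreated gave the same count. Limma called 0 of 7 members and 0 of all genes (0%), and 0 of 7 had an unadjusted p under 0.05, against 4.34% of all genes. The differences were above 0 for 2 members, Bbc3 and Ccng1, and below 0 for 5, against 51.1% of all genes below 0. Their median was -0.06, beside -0.004 over all genes. The groups did not overlap for Bbc3, which was higher, and for Trp53inp1 and Aen, which were lower. Such separation was found in 15.2% of all genes on the high side and 17.3% on the low side. All 7 intervals lay within 1.5-fold, against 74.3% of all genes.

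**Figure D2:**
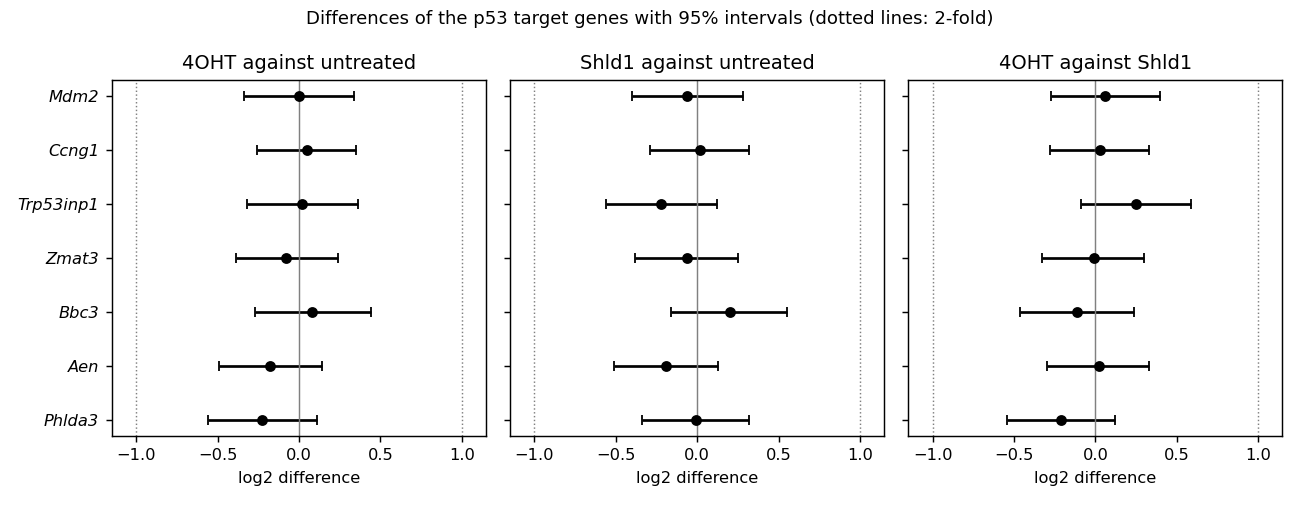
Log2 differences of the 7 genes (points) with 95% intervals from limma (bars) in the 3 comparisons, and dotted lines at 2-fold. All 21 intervals include 0 and stay inside 2-fold, and Trp53inp1 in 4OHT against Shld1 reaches farthest, to 0.59.

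The agents were compared with each other at the same dose, 1 µM, in 1 pair for each of the 7 genes. Trp53inp1 differed most, at 8.94 ± 0.02 in 4OHT cells and 8.69 ± 0.16 in Shld1 cells (SD, n = 2 each), with both 4OHT arrays above both Shld1 arrays. The difference was 0.25 (SE 0.15, 95% interval -0.09 to 0.59; limma, adjusted p = 0.905 over all genes). Phlda3 lay the other way, at 7.58 ± 0.02 in 4OHT cells and 7.79 ± 0.18 in Shld1 cells, a difference of -0.21 (SE 0.15, 95% interval -0.54 to 0.12). Its arrays did not overlap either. Which of these genes differed most rested on single Shld1 arrays: without Shld1 replicate 2 the differences were 0.14 for Trp53inp1 and -0.34 for Phlda3, and without Shld1 replicate 1 they were 0.36 and -0.08. The other 5 genes overlapped between the agents, with differences of 0.06 for Mdm2, 0.03 for Ccng1, -0.11 for Bbc3, -0.01 for Zmat3 and 0.02 for Aen. Limma called 0 of 7 members and 0 of all genes (0%), and 0 of 7 had an unadjusted p under 0.05, against 5.6% of all genes. The differences were below 0 for 3 members, against 50.9% of all genes, and the median of the members was 0.02. Arrays were apart and higher in 14.9% of all genes and apart and lower in 15.6%, beside 1 member each. Of the 7 intervals, 6 lay within 1.5-fold, against 71.6% of all genes, and the interval of Trp53inp1 did not. An interval that includes 0 does not show that the agents act alike.

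Seen array by array, the members did not move as a block on the arrays of either agent. Relative to the untreated mean, 4 members were lower and 3 higher on each 4OHT array, with medians of -0.06 on replicate 1 and -0.04 on replicate 2. On Shld1 replicate 1, 2 were lower and 5 higher, with a median of 0.02. On Shld1 replicate 2, 5 were lower and 2 higher, with a median of -0.15 and extremes of -0.33 for Trp53inp1 and 0.26 for Bbc3. That is also the array with the narrowest spread of signals, whose part in the result was not tested on its own. Without it the median of the members in Shld1 against untreated was 0.02, and without Shld1 replicate 1 it was -0.15. With all arrays that median was -0.06. It was -0.03 with centring on the 75th percentile and -0.0 with quantile normalization, which gives all arrays the same spread of signals. In 4OHT against untreated the median was 0.0, and with those normalizations it was 0.05 and 0.06. The untreated arrays themselves stood as far as 0.10 from their mean, for Trp53inp1.

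The gap between replicate arrays sets the scale for these values. Over the 7 genes its median was 0.06 in 4OHT cells, 0.17 in Shld1 cells and 0.05 in untreated cells. Over all genes the median gap was 0.17 in 4OHT cells, 0.20 in Shld1 cells and 0.12 in untreated cells. Trp53inp1 had the widest gap between untreated arrays, 0.21, and Zmat3 the narrowest, 0.01.

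**Figure D3:**
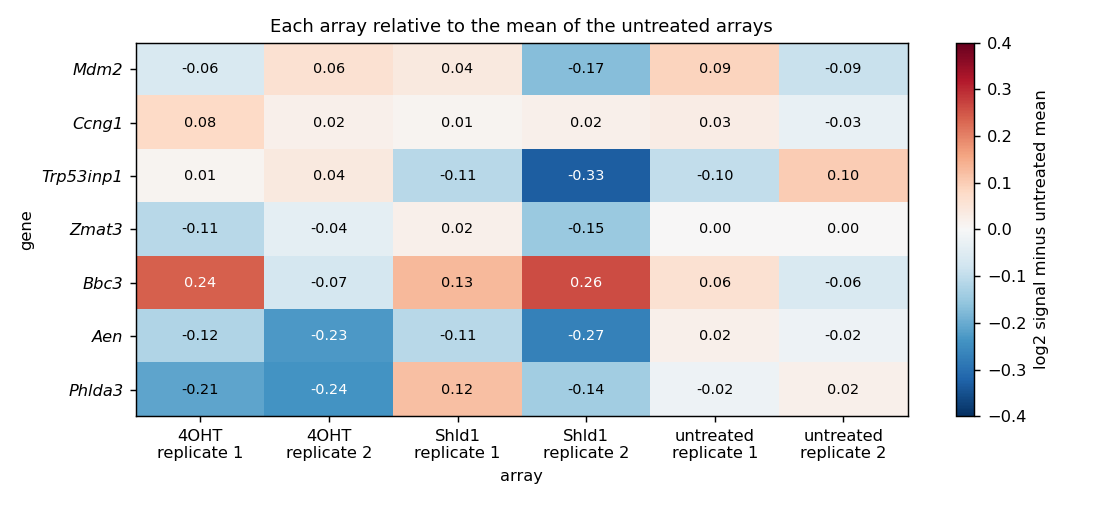
Log2 signal of each of the 7 genes (rows) on each of the 6 arrays (columns) minus the mean of the untreated arrays, printed in each cell and coloured from blue (lower) to red (higher). Aen is blue on all 4 treated arrays, from -0.11 to -0.27, Phlda3 on both 4OHT arrays, and Bbc3 is red on both Shld1 arrays.

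Other genes of the pathway were read from 4 wider lists. None of them held a called gene in any comparison, where 0 of all 19938 genes (0%) were called. The shares of all genes given beside the members and these lists were not matched for brightness. Of the 19938 genes, 12841 had a mean signal above background. The counts and medians of the wider lists were not repeated with another normalization, so any dependence of their direction on it was not tested. Of 40 further p53 targets, 37 had a value. With 4OHT, 14 of the 37 were above and 23 below 0, against 52.2% of all genes below 0. Their median was -0.06, beside -0.009 over all genes. The arrays were apart and lower for 12 of the 37 and apart and higher for 3, against 20.4% and 17.3% of all genes. Plk3, a stress-activated polo-like kinase, was at 6.06 and 6.05 in 4OHT cells, against 6.54 and 6.57 in untreated cells, a difference of -0.50 (SE 0.17; limma, adjusted p = 0.96). Gadd45a, which slows the cycle and aids repair after damage, was at 7.83 and 7.96 in 4OHT cells, against 8.28 and 8.28 in untreated cells, a difference of -0.39 (SE 0.14; limma, adjusted p = 0.96). Both genes were lower on both 4OHT arrays, while Thbs1, a secreted matrix protein gene with a difference of 0.32 (SE 0.14), stayed below background in both groups. These 3 of 37 had an unadjusted p under 0.05, against 4.99% of all genes.

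With Shld1, 10 of the 37 further targets were above and 27 below 0, against 51.1% of all genes below 0. Their median was -0.08, beside -0.004 over all genes. The arrays were apart and lower for 10 and apart and higher for 3, against 17.3% and 15.2% of all genes, and 0 of the 37 had an unadjusted p under 0.05. The smallest p belonged to Xpc, which detects lesions for nucleotide excision repair, at 5.05 and 4.71 in Shld1 cells, against 5.18 and 5.12 in untreated cells. Its difference was -0.27 (SE 0.16), and those of Fbxw7, a ubiquitin ligase subunit, and Pmaip1, which encodes the BH3-only protein NOXA, were -0.24 (SE 0.15) and 0.24 (SE 0.16). Between the agents, the 37 targets had a median of 0.00, with arrays apart and lower for 8 and apart and higher for 7, against 15.6% and 14.9% of all genes. An unadjusted p under 0.05 was found for 3 of the 37, against 5.6% of all genes: Plk3, Fbxw7 and Thbs1. Plk3 was at 6.06 ± 0.01 in 4OHT cells and 6.52 ± 0.30 in Shld1 cells (SD, n = 2 each; difference -0.46, SE 0.17), and Fbxw7 at 6.56 ± 0.15 in 4OHT cells and 6.21 ± 0.10 in Shld1 cells (difference 0.35, SE 0.15). Thbs1 differed by 0.41 (SE 0.14) between the agents, again below background.

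The regulators of p53 and the damage kinases, 26 of 27 with a value, had medians of 0.01 with 4OHT, -0.04 with Shld1 and 0.05 between the agents. An unadjusted p under 0.05 was found for 0 of 26 with either agent against untreated. The share of all genes was 4.99% with 4OHT and 4.34% with Shld1. Between the agents it was found for 2 of 26, Kat5 and Trp73, against 5.6% of all genes. With 4OHT the smallest p values were those of Trp73, the p53 relative p73, at 0.32 (SE 0.19), Rchy1, a ubiquitin ligase of p53, at -0.33 (SE 0.20), and Smyd2, a methyltransferase that modifies p53, at -0.19 (SE 0.15). With Shld1 they were those of Kat5, an acetyltransferase of p53, at 0.28 (SE 0.15), of Ep300, another acetyltransferase, at -0.23 (SE 0.16), and of the checkpoint kinase gene Chek2, at -0.25 (SE 0.17). Kat5 was at 5.88 and 6.14 in 4OHT cells, against 6.39 and 6.42 in Shld1 cells, a difference of -0.40 (SE 0.15; limma, adjusted p = 0.871). Trp73 differed by 0.48 (SE 0.19) and Ep300 by 0.23 (SE 0.16) between the agents.

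The cyclins, kinases and inhibitors of the G1 phase, 18 of 18 with a value, had medians of 0.00 with 4OHT, 0.04 with Shld1 and -0.03 between the agents. In each comparison 1 of the 18 had an unadjusted p under 0.05, Cdkn2c with either agent against untreated and Cdk6 between the agents. Of all genes, 4.99% had one with 4OHT, 4.34% with Shld1 and 5.6% between the agents. Cdkn2c, which encodes the CDK4 and CDK6 inhibitor p18, was at 3.55 and 3.61 in 4OHT cells, 3.61 and 3.49 in Shld1 cells, and 3.81 and 4.19 in untreated cells. It was lower than untreated by a mean of -0.42 (SE 0.16) with 4OHT and -0.45 (SE 0.16) with Shld1, on shared untreated arrays and with both treated means below the background level. Cdk6, a kinase of the G1 phase, was at 6.40 and 6.68 in 4OHT cells, against 6.04 and 5.84 in Shld1 cells. That difference of 0.60 (SE 0.16; limma, adjusted p = 0.844) was the largest of the list, and the untreated arrays, at 6.26 and 6.18, lay between the agents. Against untreated, Cdk6 differed by 0.32 (SE 0.16) with 4OHT and -0.28 (SE 0.16) with Shld1. Rb1, the retinoblastoma gene, differed by -0.26 (SE 0.16) with 4OHT, and Cdkn1b, the CDK inhibitor p27, by 0.29 (SE 0.17) with Shld1. Between the agents, the cyclin gene Ccnd1 differed by 0.36 (SE 0.16) and Rbl2, a relative of Rb1, by -0.27 (SE 0.17).

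Of the BCL2 family and caspases, 18 of 21 had a value, with medians of -0.03 with 4OHT, -0.02 with Shld1 and -0.02 between the agents. In any of the 3 comparisons, 0 of 18 had an unadjusted p under 0.05. Of all genes, 4.99% had one with 4OHT, 4.34% with Shld1 and 5.6% between the agents. With 4OHT the 3 smallest p values belonged to the BH3-only genes Hrk, at 0.26 (SE 0.16), Bad, at -0.23 (SE 0.15), and Bcl2l11, which encodes BIM, at -0.21 (SE 0.14). With Shld1 they belonged to Bcl2l1, the survival gene for BCL-XL, at -0.28 (SE 0.15), Bik, at 0.27 (SE 0.15), and Bid, at 0.23 (SE 0.14). Between the agents, Bcl2l1 was at 5.70 and 5.85 in 4OHT cells, against 5.53 and 5.34 in Shld1 cells, and differed by 0.34 (SE 0.15). Bcl2l11 differed by -0.30 (SE 0.14) and Casp9, the initiator caspase of the mitochondrial route, by 0.25 (SE 0.16).

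**Figure D4:**
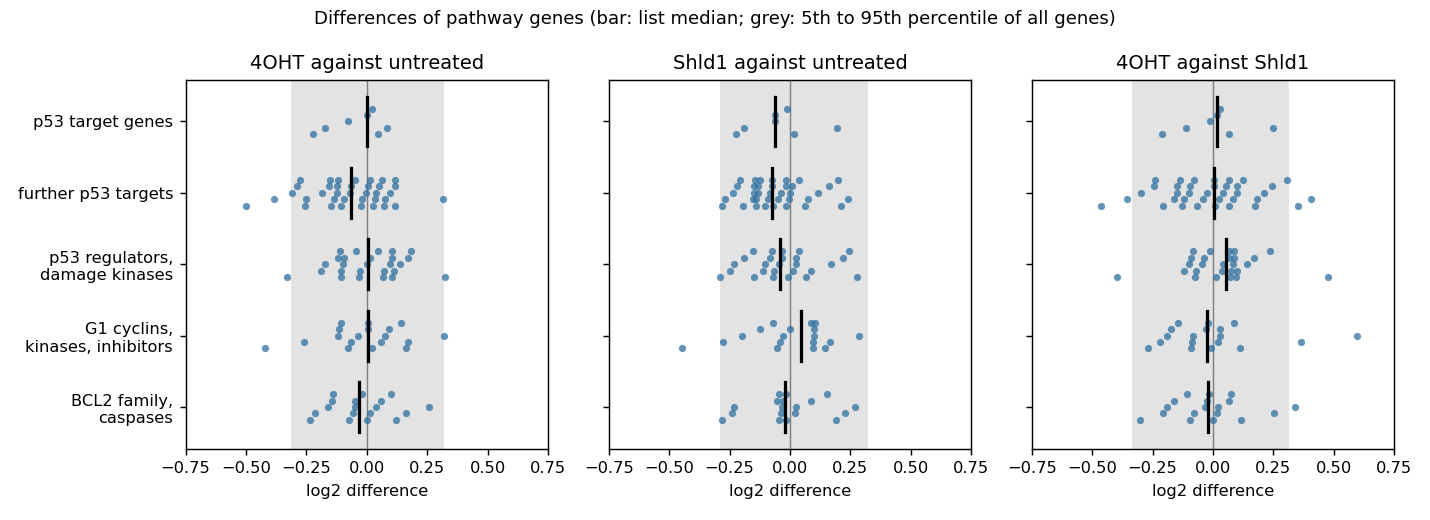
Log2 differences of every gene with a value in the p53 target list and the 4 wider pathway lists (points), with list medians (bars) and the 5th to 95th percentile of all 19938 genes (grey), in the 3 comparisons. The 7 p53 target genes lie inside the grey band in every comparison, and Cdk6 at 0.60 stands farthest out in 4OHT against Shld1.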

How the data were processed

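The deposited table held log2 signal for 35556 probe sets on 6 arrays, with no missing value; the log2 scale was read from the range of the values. How the authors summarized and normalized these deposited log2 values is not stated in the labels; limma 3.14 is the only tool listed in the submitters' processing notes. Values were used as deposited.

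The 21789 probe sets with 1 symbol in the platform annotation were named, 21698 of them through a current RefSeq record, and the brightest per gene over the 6 arrays was kept (19938 genes). Differences were fitted with limma 3.58.1 in R 4.3.3 as a mean per group over all 6 arrays, with empirical Bayes moderation, 95% intervals and two-sided tests adjusted by Benjamini-Hochberg over all genes. The number of arrays limits the precision: the standard error of a difference had a median of 0.160, and an SD rests on 2 values. The moderation draws the spread of each gene toward that of all genes, with 6.767 prior degrees of freedom beside 3 residual ones. A standard error or interval of a member therefore does not rest on its own replicates alone. The steps were run on simulated data with independent noise and planted changes of 1.5-fold or more. Those changes are larger than the difference of any member here, so that run does not speak to differences of this size.

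Members, lists and tests were chosen with earlier results of these data known. All measured members were named, with the 3 genes of smallest p per pathway list and comparison; genes most like Trp53 or Cdkn1a in pattern were not sought, as those had no value. Cell type markers were read against background. Their differences between groups were also fitted gene by gene, with 0 called, and are not described here. Alternatives were quantile normalization, centring on the 75th percentile, averaged probe sets, leaving out the dimmest 40% of genes, an intensity trend, only the 2 groups compared, the replicate number as a block, leaving out each array, and unadjusted p.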

Additional observations from a re-analysis of the deposited data

How the results depend on the processing

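Limma called 0 of the 7 p53 target genes in each comparison under every alternative run, and 0 of 7 had an unadjusted p under 0.05 with all arrays in the unaltered fit; the lowest adjusted p of a member was 0.431. Over all genes, an unadjusted p under 0.05 was reached by 995 genes in 4OHT against untreated, 866 in Shld1 against untreated and 1117 in 4OHT against Shld1. An intensity trend called 1 gene, Snora62, which is no member, in 4OHT against Shld1 (limma, adjusted p = 0.0304). The labels number the arrays of each group 1 and 2, but same-numbered arrays did not deviate together (r across genes of 0.05, -0.079 and -0.194 between groups), and with the replicate number as a block limma again called 0 genes in each comparison, with lowest adjusted p of 1, 0.711 and 0.239.

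Of 273 member differences under alternatives, 254 kept their sign and 19 did not. Many of the 254 could not change, so this count overstates how stable the signs were. Averaged probe sets, leaving out dim genes, an intensity trend, only the 2 groups compared and the replicate block leave a member's difference as it was. So does leaving out an array of the group not compared. Only the 2 other normalizations and leaving out an array of a compared group could reverse a sign. Phlda3 in Shld1 against untreated, -0.01, became 0.03 with quantile normalization and 0.02 with centring. The other reversals came from leaving out 1 array. In 4OHT against untreated, Mdm2 then ran from -0.09 to 0.09, Bbc3 from -0.07 to 0.24 and Trp53inp1 from -0.08 to 0.13. In Shld1 against untreated, Mdm2 ran from -0.17 to 0.04, Ccng1 from -0.0098 to 0.05, Phlda3 from -0.14 to 0.12 and Zmat3 from -0.15 to 0.02. In 4OHT against Shld1, Mdm2 ran from -0.04 to 0.17, Ccng1 from -0.001 to 0.06, Bbc3 from -0.27 to 0.04, Zmat3 from -0.10 to 0.07 and Aen from -0.06 to 0.10. These reversals are of differences within the replicate gaps; their cause beyond the array left out was not tested. The remaining differences kept their sign without any single array. In 4OHT against untreated these were Phlda3 (-0.24 to -0.21), Aen (-0.23 to -0.12), Zmat3 (-0.11 to -0.04) and Ccng1 (0.02 to 0.08). In Shld1 against untreated they were Aen (-0.27 to -0.11), Trp53inp1 (-0.33 to -0.11) and Bbc3 (0.13 to 0.26). Between the agents they were Trp53inp1 (0.14 to 0.36) and Phlda3 (-0.34 to -0.08). With 2 arrays a group, the half-width of a 95% interval had a median of 0.357 over all genes, which limits the size of difference that can be seen.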
